A study of Homo sapiens with 6 samples.

Results

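The MAPK output set held 6 array probes for 5 genes, SPRY2, DUSP6 (2 probes), DUSP5, PHLDA1 and CCND1, out of 24526 probes in the table, which name 16922 genes. They were chosen by a list of probe identifiers, with earlier results of these data known, and the platform annotation paired each probe with the same gene as the selection did. All 6 were detected on all 6 arrays and all 6 were among the 13186 probes tested. The arrays were hybridised with RNA of OCM1A cells, an established human line labelled as uveal melanoma, grown in RPMI-1640 with serum and sorted by flow cytometry after a commercial MDR1 shift assay. The 2 groups were ABCB1pos cells (3 arrays) and ABCB1neg cells (3 arrays), which share line and medium and differ by the sorting gate. ABCB1, also known as P-glycoprotein or MDR1, pumps a wide range of drugs out through the cell membrane. The comparison asked how the 2 fractions of this 1 line differ, over replicate numbers 1 to 3, with no drug treatment given in the labels.

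In the MAPK pathway, receptors pass a signal through RAS, RAF and MEK to the kinase ERK, which switches on transcription through ETS and AP-1 factors. Some of the induced genes act back on the pathway: Sprouty proteins such as SPRY2 restrain signalling from receptors to RAS and RAF, and the phosphatases DUSP6 and DUSP5 remove the activating phosphates from ERK in the cytoplasm and in the nucleus. Other outputs serve the cell itself, such as CCND1 (cyclin D1), which drives the cell cycle through G1. In melanocytic tumours this pathway is often active through mutation, and transcript levels of such genes are commonly read as a measure of its activity.

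One of the 6 probes, that of SPRY2, was lower in ABCB1pos cells, and the other 5 did not pass the test. Values are normalised log2 levels, and differences are ABCB1pos minus ABCB1neg on that scale, from a limma fit over all tested probes with the replicate number as a block and a threshold of 0.05 on the Benjamini-Hochberg adjusted p. In this fit 20.3% of all tested probes passed, 11.1% as higher and 9.2% as lower in ABCB1pos cells, so 1 of 6 was near the share of all probes. The median difference was -0.11 over the 6 probes and -0.02 over all tested probes. No other probe of the set passed in any of 21 alternative analyses. RNA came from sorted populations, so a lower level per cell and fewer cells with a high level cannot be told apart.

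SPRY2 (ILMN_2089329) stood at 10.73, 11.17 and 10.69 on the ABCB1pos arrays of numbers 1, 2 and 3, against 11.59, 11.48 and 11.42 on the ABCB1neg arrays. All 3 ABCB1pos values lay below all 3 ABCB1neg values, and the ABCB1pos array numbered 2 came nearest to the ABCB1neg arrays. Such a separation was seen for 27.2% of tested probes. The deposited signal was 1715 ± 295 in ABCB1pos cells and 2967 ± 530 in ABCB1neg cells (SD, n = 3 each). The log2 difference was -0.63 ± 0.13 (SE, 95% interval -0.94 to -0.32), a 1.55-fold lower level, with an adjusted p of 0.0153. It was larger in size than 90.9% of all differences, and 460 probes had a larger fall. The call rested on the pairing: without the block the adjusted p was 0.0659 at the same difference, and 0 of the 6 probes passed in that fit, against 5.15% of all tested probes (3.5% higher and 1.65% lower). It also rested on number 1, since leaving out both arrays numbered 1 gave -0.51 with an adjusted p of 0.109. Within the pairs the difference was -0.85 for number 1, -0.31 for number 2 and -0.73 for number 3.

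**Figure D1:**
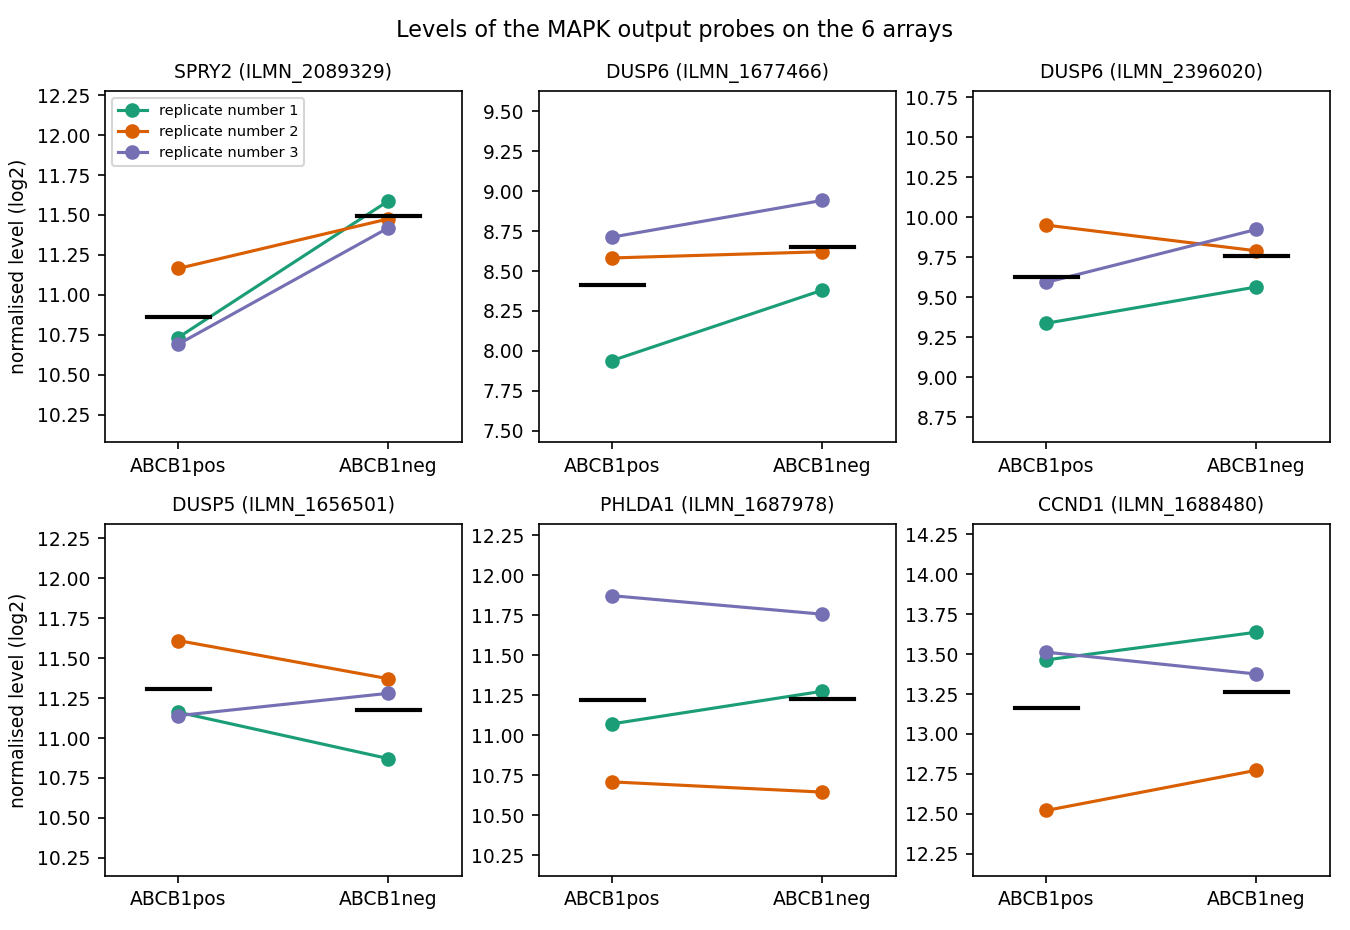
Normalised log2 level (y axis, each panel spanning the same range) of the 6 probes in ABCB1pos and ABCB1neg cells, with a line joining arrays of the same replicate number and black bars at the group means (n = 3 each). For SPRY2 the groups are apart at means of 10.86 and 11.49, while for the other 5 probes they overlap.

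ABCB1 itself, the sorted protein, had levels of 8.79, 9.39 and 8.19 on the ABCB1pos arrays, against 7.25, 7.24 and 7.18 on the ABCB1neg arrays. It was higher in every pair, by 1.55, 2.15 and 1.02 in the order of the numbers. The fitted difference was 1.57 ± 0.20 (SE, adjusted p = 0.00204). The pair with the largest ABCB1 difference, number 2, had the smallest SPRY2 difference; with 3 pairs no relation was tested.

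The 250 bases before an annotated start are shown for SPRY2, for SPRED1, a related inhibitor described below that was also lower, and for DUSP6, which did not pass, because ETS factors are a step between ERK and its target genes. The sequences are RefSeq's on GRCh38.p14, read 5′ to 3′ towards the gene: SPRY2 at chr13:80341127-80341376 on the minus strand (1 of 3 annotated starts), SPRED1 at chr15:38252586-38252835 on the plus strand, and DUSP6 at chr12:89352502-89352751 on the minus strand. Capitals mark GGAA, the core of ETS sites, and TGACG, the core of cAMP response elements, on either strand. The AP-1 motif TGANTCA was searched on both strands too.
SPRY2: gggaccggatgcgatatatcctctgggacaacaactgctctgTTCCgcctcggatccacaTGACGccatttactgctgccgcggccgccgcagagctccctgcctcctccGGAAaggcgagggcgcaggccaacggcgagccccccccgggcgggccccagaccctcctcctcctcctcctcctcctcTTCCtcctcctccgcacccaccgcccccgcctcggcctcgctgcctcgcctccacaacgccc
SPRED1: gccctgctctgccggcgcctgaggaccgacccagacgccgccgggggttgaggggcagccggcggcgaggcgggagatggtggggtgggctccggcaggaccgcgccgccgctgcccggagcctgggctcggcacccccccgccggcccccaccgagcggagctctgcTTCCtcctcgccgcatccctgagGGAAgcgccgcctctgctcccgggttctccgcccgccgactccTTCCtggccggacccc
DUSP6: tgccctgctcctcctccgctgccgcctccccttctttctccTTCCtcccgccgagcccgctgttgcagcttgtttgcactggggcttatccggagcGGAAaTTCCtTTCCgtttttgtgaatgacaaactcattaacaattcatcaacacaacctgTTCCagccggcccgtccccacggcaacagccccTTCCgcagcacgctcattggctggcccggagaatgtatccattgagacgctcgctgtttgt
GGAA occurred 3 times before SPRY2, 3 times before SPRED1 and 6 times before DUSP6, and it was present in 92.7% of 35116 promoter windows of this length. The longer CCGGAA, which contains GGAA, occurred once in the SPRY2 window shown and not in the other 2 windows, against 14.5% of all windows. It also occurred once before PHLDA1, which did not pass. TGACG occurred once in the SPRY2 window shown, against 21.2% of all windows, and in none of the SPRED1, DUSP6 and PHLDA1 windows. The windows of the other 2 SPRY2 starts held neither CCGGAA nor TGACG. The AP-1 letters TGANTCA, present in 6.57% of all windows, occurred in none of these windows. No window was available for DUSP5 or CCND1, so neither was searched. These matches describe letters and no binding.

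DUSP6 was read by 2 probes annotated to different DUSP6 transcripts, and neither passed. ILMN_1677466 had 7.94, 8.58 and 8.71 on the ABCB1pos arrays, against 8.38, 8.62 and 8.94 on the ABCB1neg arrays. The value was lower in ABCB1pos cells in all 3 pairs, by amounts between -0.44 and -0.04, while the groups overlapped. A common sign in all 3 pairs was seen for 55.7% of tested probes. The difference was -0.24 ± 0.12 (SE, 95% interval -0.52 to 0.04, adjusted p = 0.202). ILMN_2396020 had 9.34, 9.95 and 9.59 on the ABCB1pos arrays, against 9.56, 9.79 and 9.92 on the ABCB1neg arrays. Its difference was -0.13 ± 0.13 (SE, 95% interval -0.43 to 0.17, adjusted p = 0.507), with pair 2 of the opposite sign to pairs 1 and 3. Both intervals reach past -0.4, so a moderate fall of DUSP6 could not be told from none with these arrays.

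DUSP5, the nuclear ERK phosphatase, had 11.16, 11.61 and 11.14 on the ABCB1pos arrays, against 10.87, 11.37 and 11.28 on the ABCB1neg arrays. It was higher in ABCB1pos cells in pairs 1 and 2 and lower in pair 3, and the groups overlapped. The difference was 0.13 ± 0.13 (SE, 95% interval -0.16 to 0.42, adjusted p = 0.504). Its interval leaves out a change of the size seen for SPRY2 in either direction.

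PHLDA1, a pleckstrin homology-like protein induced by ERK signalling, differed little between fractions and much between replicate numbers. It had 11.07, 10.71 and 11.87 on the ABCB1pos arrays, against 11.27, 10.64 and 11.76 on the ABCB1neg arrays. Number 2 was lowest and number 3 highest in both fractions. The difference was -0.01 ± 0.12 (SE, 95% interval -0.28 to 0.26, adjusted p = 0.968).

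CCND1 had 13.46, 12.52 and 13.51 on the ABCB1pos arrays, against 13.64, 12.77 and 13.38 on the ABCB1neg arrays. Number 2 was lowest in both fractions, and its deposited signals of 4958 in ABCB1pos and 5892 in ABCB1neg cells stood beside 11224 or more on the other 4 arrays. The difference was -0.10 ± 0.12 (SE, 95% interval -0.38 to 0.18, adjusted p = 0.615), and its sign turned under 75th percentile scaling (0.07) and cyclic loess (0.01). The same 2 scalings turned the sign of PHLDA1, to 0.05 under each.

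The split of each probe's variation between arrays uses the same values as the fit, so it restates the contrast and adds no test. The ABCB1 fraction held 79.7% of the SPRY2 variation and the replicate number 9.51%. For the other 5 probes the number held 66.9% to 97.8% and the fraction at most 14.3%. PHLDA1 (97.8%) and CCND1 (94.6%) were the highest for the number. Over all tested probes the fraction held 45.0%, the number 42.3% and the remainder 12.7%, where degrees of freedom alone would give 20%, 40% and 40%. The arrays numbered 2 had the lowest mean deposited signal of each fraction, 668 in ABCB1pos and 670 in ABCB1neg cells, against 722 to 958 on the others; the part of array brightness in the low PHLDA1 and CCND1 of number 2 was not tested.

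**Figure D2:**
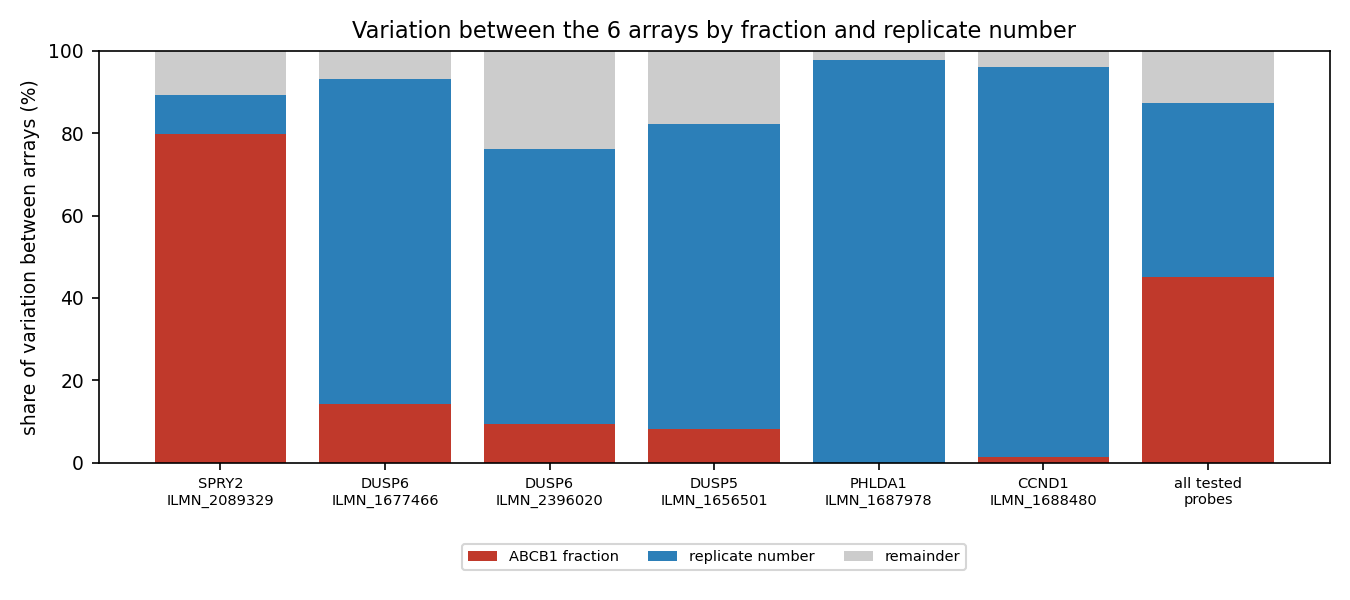
Share of the variation between the 6 arrays (y axis, percent) held by the ABCB1 fraction, the replicate number and the remainder, as stacked bars for each of the 6 probes and for all tested probes summed. SPRY2 is mostly red (79.7% fraction), and the other 5 bars are mostly blue, with PHLDA1 at 97.8% for the number.

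Within each pair the SPRY2 difference was below that of every other probe of the set. SPRY2 was singled out by its low difference in these same data, so such gaps follow in part from that choice. The gap to the DUSP6 probes ran from -0.27 to -0.63 over the 3 pairs, the gap to DUSP5 from -0.55 to -1.15, the gap to PHLDA1 from -0.37 to -0.84 and the gap to CCND1 from -0.06 to -0.87. An exact sign-flip test over 3 pairs cannot go below a two-sided p of 0.25, so these gaps were not tested.

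**Figure D3:**
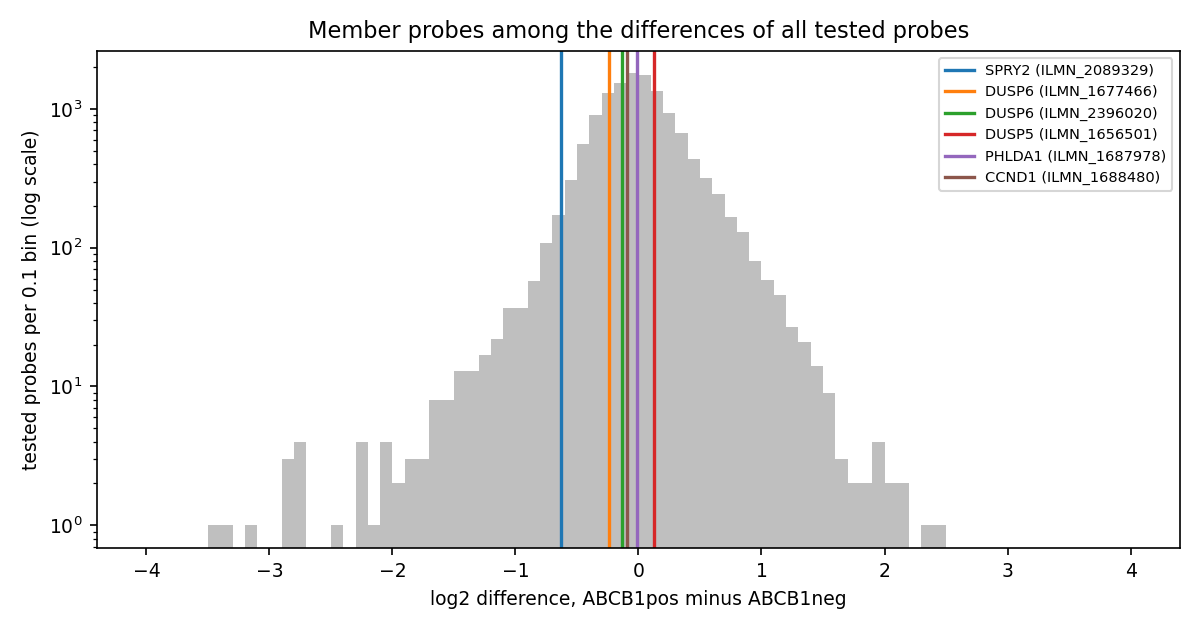
Histogram of the log2 differences (x axis) of all 13186 tested probes (y axis, probes per bin of 0.1, log scale), with vertical lines at the 6 probes of the set. SPRY2 lies at -0.63 on the lower flank, and the other 5 lie between -0.24 and 0.13 in the centre.

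The profiles of the 6 probes did not run together over the arrays. The 2 DUSP6 probes correlated with r = 0.81 over the 6 arrays, PHLDA1 with CCND1 at r = 0.75, DUSP5 with CCND1 at r = -0.91, and SPRY2 with the others between -0.26 and 0.51. These are descriptions over 6 arrays that share 3 replicate numbers. Among all tested probes with another gene name, the profile most like SPRY2 was that of BTF3L4 (r = 0.999), followed by TMX3 (r = 0.997). Their differences of -0.57 ± 0.12 for BTF3L4 and -0.90 ± 0.16 for TMX3 (SE) follow from the choice by likeness and were not tested. The most alike to PHLDA1 were SYTL4 (r = 0.998) and PHLDA3 (r = 0.994), a relative of it, and to CCND1 DDX39B (r = 0.996) and NR2F1 (r = 0.995). For DUSP5 they were UBR1 (r = 0.990) and NUP93 (r = 0.987). For the DUSP6 probe ILMN_1677466 they were XBP1 (r = 0.969) and NRXN3 (r = 0.967), and for ILMN_2396020 GGH (r = 0.994) and SPRTN (r = 0.987). All of these were picked as the most alike among all tested probes over 6 arrays, so their high r values follow from that choice too.

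Other ERK output genes went in both directions. Of 25 listed genes 24 had a probe and 18 were tested; 2 were higher and 4 lower in ABCB1pos cells, and 12 did not pass. The median difference over their 23 tested probes was -0.01. A gene counts as higher or lower here if any of its probes passed, and by that rule 22.3% of all tested genes passed in either direction, 12.2% with a higher and 10.2% with a lower probe.

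The inhibitors related to SPRY2 differed among themselves. SPRED1, which recruits the RAS inactivator neurofibromin to the membrane, had 11.48, 11.91 and 11.14 on the ABCB1pos arrays, against 12.68, 12.50 and 12.25 on the ABCB1neg arrays. All ABCB1pos values were below all ABCB1neg values, and as for SPRY2 the gap was smallest in number 2. The difference was -0.97 ± 0.14 (SE), 1.95-fold lower, with an adjusted p of 0.00377, and of 0.0438 without the block. SPRY1 (-0.04), SPRY4 (-0.19) and SPRED2 (0.03) did not pass, with adjusted p of 0.878, 0.497 and 0.894. ERRFI1, a feedback inhibitor of EGFR family receptors, was lower by -0.56 ± 0.16 (SE, adjusted p = 0.0456; 0.242 without the block). For DUSP4, another nuclear MAPK phosphatase, the 2 probes gave -0.54 (adjusted p = 0.0629) and -0.37 (adjusted p = 0.127).

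Among other outputs, the ephrin receptor EPHA4 had 9.32, 9.55 and 8.87 on the ABCB1pos arrays, against 7.49, 8.06 and 7.41 on the ABCB1neg arrays. The groups were well apart, and the difference of 1.59 ± 0.12 (SE, adjusted p = 0.000491) meant a 3.02-fold higher level. ETV4, an ETS transcription factor, was higher by both of its probes, at 0.59 ± 0.12 and 0.48 ± 0.12 (SE, adjusted p = 0.0117 and 0.0303; 0.197 and 0.238 without the block). Its relative ETV5 gave -0.05 and -0.01, and neither probe passed. The chemokine CXCL8 (interleukin 8) was lower by -1.72 ± 0.28 (SE, adjusted p = 0.00528), but its groups overlapped and the adjusted p was 0.175 without the block. CCND3, a paralogue of CCND1, was lower by -0.43 ± 0.12 (SE, adjusted p = 0.0339; 0.121 without the block). Early response genes EGR1 (0.12), FOSL1 (-0.01) and MYC (-0.39, adjusted p = 0.0665) did not pass.

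**Figure D4:**
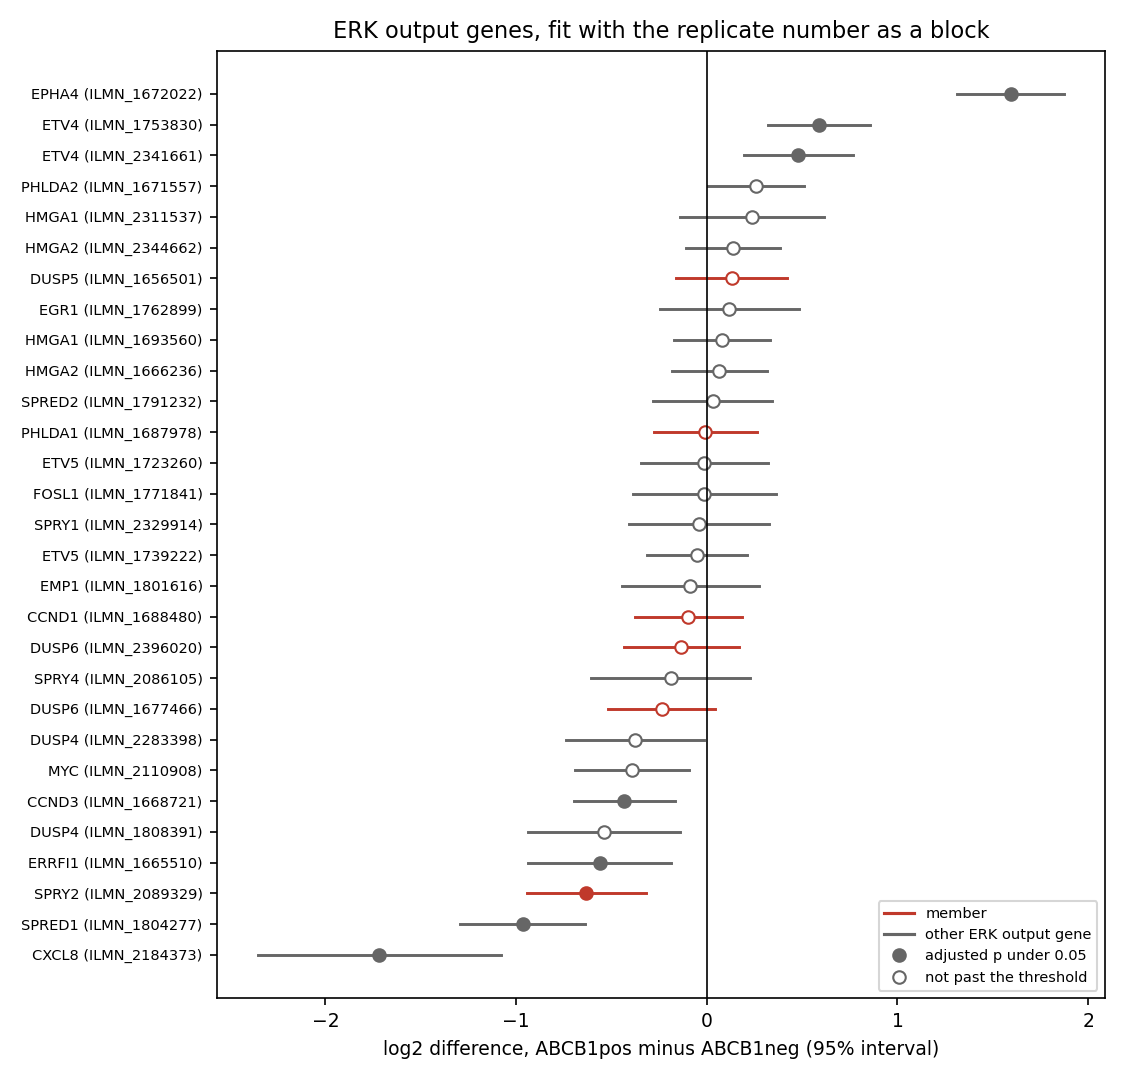
Log2 difference, ABCB1pos minus ABCB1neg (x axis), with 95% intervals for the 6 probes of the set (red) and the tested probes of the other ERK output genes (grey), and filled points where the adjusted p was under 0.05. EPHA4 stands at 1.59 and CXCL8 at -1.72, with SPRED1 and SPRY2 as the next lowest and most other intervals across 0.

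Upstream, of 29 listed genes of the kinase cascade 20 were tested, 3 were higher, 1 was lower, and the median difference over their probes was 0.01. Counted in the same way, 22.3% of all tested genes passed, 12.2% with a higher and 10.2% with a lower probe. MAPK3 (ERK1) was higher by 0.67 ± 0.13 (SE, adjusted p = 0.0105; 0.0403 without the block) at 1 of its 2 probes, while the other gave 0.02 (adjusted p = 0.946). ELK1, an ETS factor activated by ERK, was higher by 0.58 ± 0.11 (SE, adjusted p = 0.0088), and PEBP1, an inhibitor of RAF, by 0.38 ± 0.11 (SE, adjusted p = 0.0447). Without the block neither passed, with adjusted p of 0.11 for ELK1 and 0.201 for PEBP1. RPS6KA3, the ERK-activated kinase RSK2, was lower at 2 of 3 probes (-0.56 and -0.52, adjusted p = 0.0303 and 0.0295). Without the block neither of these passed (adjusted p = 0.289 and 0.301). The third probe gave 0.39 (adjusted p = 0.11), positive in all 3 pairs. That probe was dim and was detected on only 2 ABCB1pos and 1 ABCB1neg arrays. A common sign in all 3 pairs was seen for 55.7% of tested probes. MAP2K1 (MEK1) gave -0.29 (adjusted p = 0.113).

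Of 12 receptor genes 8 were tested. Leaving KIT aside, 0 of 7 were higher and 3 were lower, with a median of -0.25 over 11 probes. Of all tested genes 12.2% had a higher and 10.2% a lower probe. The 11 probes include 2 of AXL, 3 of ERBB3 and 2 of EDNRB, the 3 genes that were lower. The receptor tyrosine kinase AXL was lower at both probes, by -3.48 ± 0.16 and -2.70 ± 0.16 (SE, adjusted p = 0.000172 and 0.000229). ERBB3 was lower at 1 of 3 probes (-0.69, adjusted p = 0.00942) and the endothelin receptor EDNRB at 1 of 2 tested (-0.40, adjusted p = 0.0368). Without the block neither passed, with adjusted p of 0.342 for that ERBB3 probe and 0.186 for that EDNRB probe. KIT, the stem cell factor receptor, was detected on 3 ABCB1pos and 0 ABCB1neg arrays and entered the test through its ABCB1pos arrays alone, so neither a test nor a fold is given for it. None of the 4 EGFR probes was detected on any array.

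Of 11 phosphatases outside the ERK targets 10 were tested and 1 passed: PPP2CA, the catalytic subunit of protein phosphatase 2A, was lower by -0.62 ± 0.12 (SE, adjusted p = 0.0101; 0.0471 without the block). DUSP1, the stress-induced MAPK phosphatase, gave 0.05 (adjusted p = 0.838). Of 10 partners of cyclin D1 in G1, 8 were tested; CDK6, a kinase that cyclin D1 activates, was lower by -0.55 ± 0.14 (SE, adjusted p = 0.0272), CCNE1 (cyclin E1) by -0.40 ± 0.11 (SE, adjusted p = 0.0447), and CDKN2A, an inhibitor of CDK4 and CDK6, was higher by 0.54 ± 0.13 (SE, adjusted p = 0.0265) at 1 of 2 tested probes. CDK4 gave 0.03 (adjusted p = 0.861). Over the 5 lists together and without KIT, 6 of 63 tested genes were higher and 11 lower (27.0% in all, against 22.3% of all tested genes). In the fit without the block 2 were higher and 3 lower, namely EPHA4 and MAPK3, and SPRED1, AXL and PPP2CA. In that fit 5.15% of all tested probes passed, 3.5% as higher and 1.65% as lower. Without the arrays numbered 1 the counts were 3 higher and 3 lower, with KIT included in the lists. Of all 13186 tested probes, 799 were higher and 442 lower there. The share of all tested genes was not computed for either fit.

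The arrays were alike in depth, with 12846 to 13183 probes detected at a detection p under 0.05 and mean signals of 668 to 958. Of 10 melanocyte lineage genes 8 were tested: MLANA, PMEL, TYR, TYRP1, SOX10 and 2 of 3 MITF probes were detected on every array and did not pass, S100B was detected on none, while RAB27A (2 of 3 probes) and GPR143 were higher in ABCB1pos cells. Over all tested genes 12.2% had a higher probe. Without the block 1 RAB27A probe passed (adjusted p = 0.0115), and the other RAB27A probe (0.0502) and GPR143 (0.077) did not. The summed signal of that list was 63750 to 92110 in ABCB1pos and 60310 to 75280 in ABCB1neg cells. For fibroblast markers, 6 of 6 probes were detected on no array. For leucocyte markers 5 of 6 probes were detected on no array, PTPRC among them. The exception was a CD14 probe, detected on every array at mean signals of 120 in ABCB1pos and 143 in ABCB1neg cells. It did not pass (0.03, adjusted p = 0.88). The summed signal of the leucocyte markers was 117 to 171 in ABCB1pos and 83.4 to 239 in ABCB1neg cells. Of endothelial and epithelial markers PECAM1, EPCAM and KRT18 were dimly detected on all arrays and CDH5, KRT5 and KRT14 on none, and none of the tested ones passed.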

How the data were processed

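The 6 arrays are 1-colour Illumina bead arrays of biotin-labelled cRNA from sorted cells, per the labels' protocols. The deposited intensity values are linear and background-subtracted (down to below 0) with a detection p-value beside each, per the file headers; no source used here names the software or the background method. The authors' second table holds the same intensity values multiplied by 1 factor per array to a common mean of 787.4. Here, normexp background correction (offset 50, which compresses dim probes), quantile normalisation and log2 were applied with limma 3.58.1 in R 4.3.3. Probes with a detection p under 0.05 on at least 3 arrays (13186) were tested with lmFit and eBayes, two-sided, Benjamini-Hochberg adjusted over all of them.

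The replicate number was a block, as the selection of the probes asked. The arrays of equal number deviated together from their group means (r = 0.475 to 0.641 for the 3 numbers, against -0.536 to 0.137 for the 6 other combinations). Deviations from a group mean cancel out within the group. Positive values for equal numbers therefore push the other combinations down on average, and part of this contrast is arithmetic. The design text speaks of 3 shift assays of 1 cell line but does not say that equal numbers mark 1 assay. With the block, the p-values reflect in part how much the difference between the fractions varied over the numbers. Variation shared by the arrays of a number is taken out of them. Without the block they reflect in part how much the arrays of a fraction vary. In both fits eBayes draws the variance of each probe towards a common value estimated from all tested probes. The p-values, that of SPRY2 among them, rest on that common value too. A test on the pairs of a probe alone was not run. The number of arrays limits the precision. Gene names came from the platform annotation (21834 probes with 1 gene, 2692 with none). The probes and gene lists were chosen with earlier results of these data known. Of the lists, genes past the threshold with and without the block were to be named; other listed genes were named after their values were seen. For each probe of the set the 2 most alike probes by Pearson correlation were named. The procedure was tested on simulated data. No array date or slide was given, so array batches were not tested. Alternatives covered background, scaling, filter, variance prior, block, the authors' scaled values and left-out arrays.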

Additional observations from a re-analysis of the deposited data

How the results depend on the processing

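The SPRY2 difference was negative in all 21 alternatives and passed in 13. It no longer passed without the block (-0.63, adjusted p = 0.0659) or with no background correction (-0.65, adjusted p = 0.0531). With both arrays of a number left out, the blocked difference was -0.79 to -0.51, with adjusted p of 0.00339 without number 2 to 0.109 without number 1. Leaving out 1 array in the fit without the block gave -0.78 to -0.54, and it passed there only without ABCB1pos replicate 2 (adjusted p = 0.0166); without ABCB1neg replicate 1 the adjusted p was 0.228. Over the 21 alternatives the lowest adjusted p of any other probe of the set was 0.0845 (DUSP6 ILMN_1677466 in the authors' scaled values). The differences of CCND1, PHLDA1, DUSP5 and DUSP6 ILMN_2396020 changed sign in some fits with 1 array left out, without passing in any.

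The counts over all tested probes were 1469 higher and 1213 lower in ABCB1pos cells with the block, and 462 higher and 217 lower without it. Median scaling gave 763 higher and 585 lower, and no background correction 789 lower. Without both arrays of a number there were 799 to 1506 higher and 442 to 1416 lower, lowest without number 1; leaving out 1 array without the block gave 7 to 822 higher and 8 to 530 lower. The share of higher calls was 54.8% with the block and 38.7% in the authors' scaled values, where the median of all differences was -0.11; SPRY2 stood at -0.72 there. Of the other pathway genes 7 were higher and 11 lower with the block, 2 and 3 without it, and 3 to 6 higher and 3 to 14 lower when a number was left out, an alternative added after seeing the data. The cause was not tested. These counts include KIT; under offset 16 they were 6 and 10, and with no filter 7 and 10. Single listed genes were not rerun under these settings. Precision is limited by 3 arrays per group, and dim probes by the offset.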
